A study of Homo sapiens with 18 samples.

Results

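The 10 genes described here encode the proteins that carry a TGF-β signal to the nucleus and those that restrain it: SMAD2, SMAD3, SMAD4, SMAD7, SKI, SKIL, PMEPA1, TGIF1, SMURF1 and SMURF2. They were chosen by name, with earlier results of these data known, so their counts beside those of all genes are descriptions. All 10 were present among the 42141 genes of the deposited tables. All 10 also passed the filter on low counts that kept 16911 genes for testing. Polyadenylated RNA was sequenced from acini, the hollow spheres that mammary epithelial cells form in a basement membrane gel, of the human non-tumour mammary line MCF-10A.B2 with a HER2 chimera that a bivalent drug, the B/B homodimerizer, can pair and activate. The wild-type groups are called WT and the JNK knockout groups JNKKO, and each genotype had 3 groups of 3 libraries. All acini grew for 21 days, the first 7 without a drug. For the last 14 days EGF was replaced by ethanol in the control groups, by the dimerizer in the dimerizer groups, or by the dimerizer together with the cytokine TGF-β1 in the TGF-β1 groups. Every TGF-β1 value here therefore comes from cells that also had the dimerizer. Treatments went to separate groups for equal times. A rise, fall or step below thus names a difference between groups, not a course over time. All 6 groups carry the HER2 chimera, and how the knockout was made, and whether it is 1 clone, is not given in the sources used here.

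Binding of TGF-β to its receptors leads to phosphorylation of SMAD2 and SMAD3, the receptor-regulated SMADs, which join SMAD4, the shared partner, and act on genes in the nucleus. Several genes switched on in this way encode brakes on the same pathway. SMAD7 occupies the receptor and recruits the ubiquitin ligases SMURF1 and SMURF2, SKI and SKIL (SnoN) are corepressors that bind SMADs on DNA, TGIF1 is a homeodomain corepressor, and PMEPA1 is a membrane protein that keeps SMAD2 and SMAD3 from the receptor. In breast epithelium the pathway is known both for growth arrest and for driving cells toward mesenchymal features, and JNK signalling acts on the AP-1 proteins that often bind beside SMADs.

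Totals ran from 24243537 to 34499651 expected counts per library, and the lowest count of any of the 10 genes in any library was 280, for SMAD7. Expression is given as CPM, the counts of a gene scaled to the library total after adjustment by its TMM factor, for each library in the order of replicates 1, 2 and 3, and as TPM, transcript shares that allow for length, where genes are set side by side. Differences are log2 values ± the standard error (SE) of an edgeR quasi-likelihood fit, called at a Benjamini-Hochberg adjusted p of 0.05 over all 16911 genes. No label states that replicates were separate cultures, so the p-values cover only the spread between libraries, which may be technical. WT TGF-β1 replicate 3 carries a genotype tag that goes against its title and was grouped by the title, and WT TGF-β1 replicate 1 differed most from its group. For SMAD3, replicate 3 gave 54.99 CPM, beside 54.1 and 53.97 in the other WT TGF-β1 libraries and 29.7 to 33.0 in JNKKO TGF-β1. SMAD3 is itself compared between these groups below, so its values are no independent check of the grouping. The genotype of that library was not tested. The JNK gene MAPK9 was lower in JNKKO, at -0.49 ± 0.04, -0.44 ± 0.04 and -0.34 ± 0.04 for control, dimerizer and TGF-β1, while MAPK8 stood at 0.47 ± 0.06, -0.02 ± 0.05 and -0.32 ± 0.06. Mitochondrially encoded transcripts took 15.1% to 15.3% of the counts in WT control and 5.24% to 5.56% in JNKKO TGF-β1, against 8.61% to 10.9% in the other 4 groups. In comparisons with WT control or JNKKO TGF-β1 that difference and the treatment or genotype cannot be told apart. The 9 epithelial and basal markers were all detected in every group, with summed levels of 9295 to 9649 CPM in JNKKO TGF-β1 and 10890 to 13970 in the other 5 groups. These sums came mostly from KRT5, ITGB4 and KRT17 and hide changes of mixed direction. With TGF-β1, 4 of the 9 rose and 5 fell in WT, against 65.2% of all genes called. In JNKKO 3 rose and 6 fell, against 60.7%. In WT, EPCAM fell by 2.03 ± 0.11, while KRT8 rose by 1.57 ± 0.08 and ITGB4 by 1.17 ± 0.06. In JNKKO, EPCAM fell by 1.47 ± 0.12. EPCAM was at 2.19 to 15.7 CPM over all libraries. The 6 fibroblast markers summed to 90.3 to 122 CPM in WT TGF-β1 and 62.6 to 77.5 in JNKKO TGF-β1, against 18.01 to 34.5 in the other groups, mostly from DCN, with PDGFRA and COL1A2 at 0 in both controls. The 5 immune markers summed to 40.2 to 48.1 CPM in JNKKO dimerizer and JNKKO TGF-β1 and to 7.40 to 17.7 elsewhere, mostly from CD68. The 4 endothelial markers summed to 14.7 to 15.2 CPM in JNKKO TGF-β1, 42.7 to 44.6 in WT control and 17.3 to 38.45 in the other 4 groups, with CDH5 at 0 in all groups but WT control and WT TGF-β1. Their part in the results below was not tested.

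Of the 10 genes, 9 have entries in the RefSeq table of start sites used here (GRCh38.p14), with 25 windows of the 250 bases before a start, and SKI is named only. Those windows were searched on both strands for CAGAC, the short SMAD-binding box (read as GTCTG on the other strand), its palindromic form GTCTAGAC, the AP-1 element TGANTCA and the CRE-like element TGACGTCA. GTCTAGAC and CAGAC do not contain each other, and neither do the 2 others. The 3 stretches below lie outside annotated exons and are shown because PMEPA1 and SKIL had the largest responses of the 10 genes and SMURF1 is the ligase with the larger one. Each is printed 5′ to 3′ on the gene's strand, with CAGAC or GTCTG and TGACGTCA in capitals. That of PMEPA1 is chr20:57710016-57710182 (minus strand), just before 1 of its 4 listed starts, that of SKIL is chr3:170357465-170357677 (plus strand), and that of SMURF1 is chr7:99144109-99144358 (minus strand).
PMEPA1: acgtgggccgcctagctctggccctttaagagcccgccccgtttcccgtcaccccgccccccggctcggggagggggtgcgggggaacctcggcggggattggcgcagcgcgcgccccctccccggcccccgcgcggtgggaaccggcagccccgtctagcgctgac
SKIL: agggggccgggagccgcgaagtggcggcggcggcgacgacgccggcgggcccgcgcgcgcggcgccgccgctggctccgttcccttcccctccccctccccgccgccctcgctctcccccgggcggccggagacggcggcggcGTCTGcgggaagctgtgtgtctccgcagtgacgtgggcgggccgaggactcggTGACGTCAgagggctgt
SMURF1: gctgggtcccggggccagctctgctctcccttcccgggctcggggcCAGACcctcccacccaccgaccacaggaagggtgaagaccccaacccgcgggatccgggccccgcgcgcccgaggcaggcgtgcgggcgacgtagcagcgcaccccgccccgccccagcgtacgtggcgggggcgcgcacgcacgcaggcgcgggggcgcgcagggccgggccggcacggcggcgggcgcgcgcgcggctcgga

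The PMEPA1 stretch held none of these letters, although 2 of the 4 PMEPA1 windows, not printed, held 1 CAGAC each, the SKIL stretch held 1 SMAD-binding box and 1 CRE-like element, and the SMURF1 stretch held 1 SMAD-binding box. Over all 25 windows, CAGAC was found in 12, against 38.0% of the 35116 windows in the table. Those 12 windows came from 6 of the 9 genes, and no share over genes was computed. TGANTCA was in 2 windows, 1 of SMAD3 and 1 of TGIF1, against 6.57% of all windows. TGACGTCA was in the 1 SKIL window only, against 1.65%, and GTCTAGAC in none, against 0.182%. These are descriptions of letters near the starts, and windows of 1 gene can overlap.

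TGF-β1 on top of the dimerizer was followed by higher levels of all 7 genes that restrain the pathway in both genotypes, with PMEPA1 rising most and SMURF2 or TGIF1 least. In WT cells 9 of the 10 genes rose and 1, SMAD2, fell, and the WT TGF-β1 and WT dimerizer libraries did not overlap for any of the 10. This is set against 65.2% of all genes called in that comparison, 33.4% higher, 31.8% lower, and 69.6% that did not overlap. In JNKKO cells 8 rose, 1 (SMAD3) fell and SMAD2 did not pass, with 60.7% of all genes called, 30.5% higher and 30.3% lower. There 9 of the 10 did not overlap between groups, against 64.8% of all genes. The median log2 difference of the 10 genes was 0.98 in WT and 0.66 in JNKKO, beside 0.00 and -0.01 over all genes tested. The 3 transducers lay between -0.19 and 0.37 in both genotypes, and the 7 others between 0.32 and 4.93.

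The dimerizer alone was followed by changes of mixed direction in WT cells, where 4 genes rose (SMAD2, SKIL, PMEPA1 and SMURF2) and 4 fell (SMAD4, SMAD7, SKI and SMURF1), with 55.9% of all genes called, 30.3% higher and 25.6% lower. The libraries of 8 of the 10 did not overlap, against 62.1% of all genes. In JNKKO cells 6 rose (SMAD7, SKIL, PMEPA1, TGIF1, SMURF1 and SMURF2) and 2 fell (SMAD3 and SMAD4), with 40.4% of all genes called, 22.5% higher and 17.9% lower, and 7 did not overlap, against 49.3%. Comparisons of dimerizer with control and of TGF-β1 with dimerizer share the dimerizer libraries, so the values of a gene in the 2 are not independent. The median log2 difference of the 10 genes was 0.12 in WT and 0.24 in JNKKO, beside 0.03 and 0.01 over all genes.

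**Figure D1:**
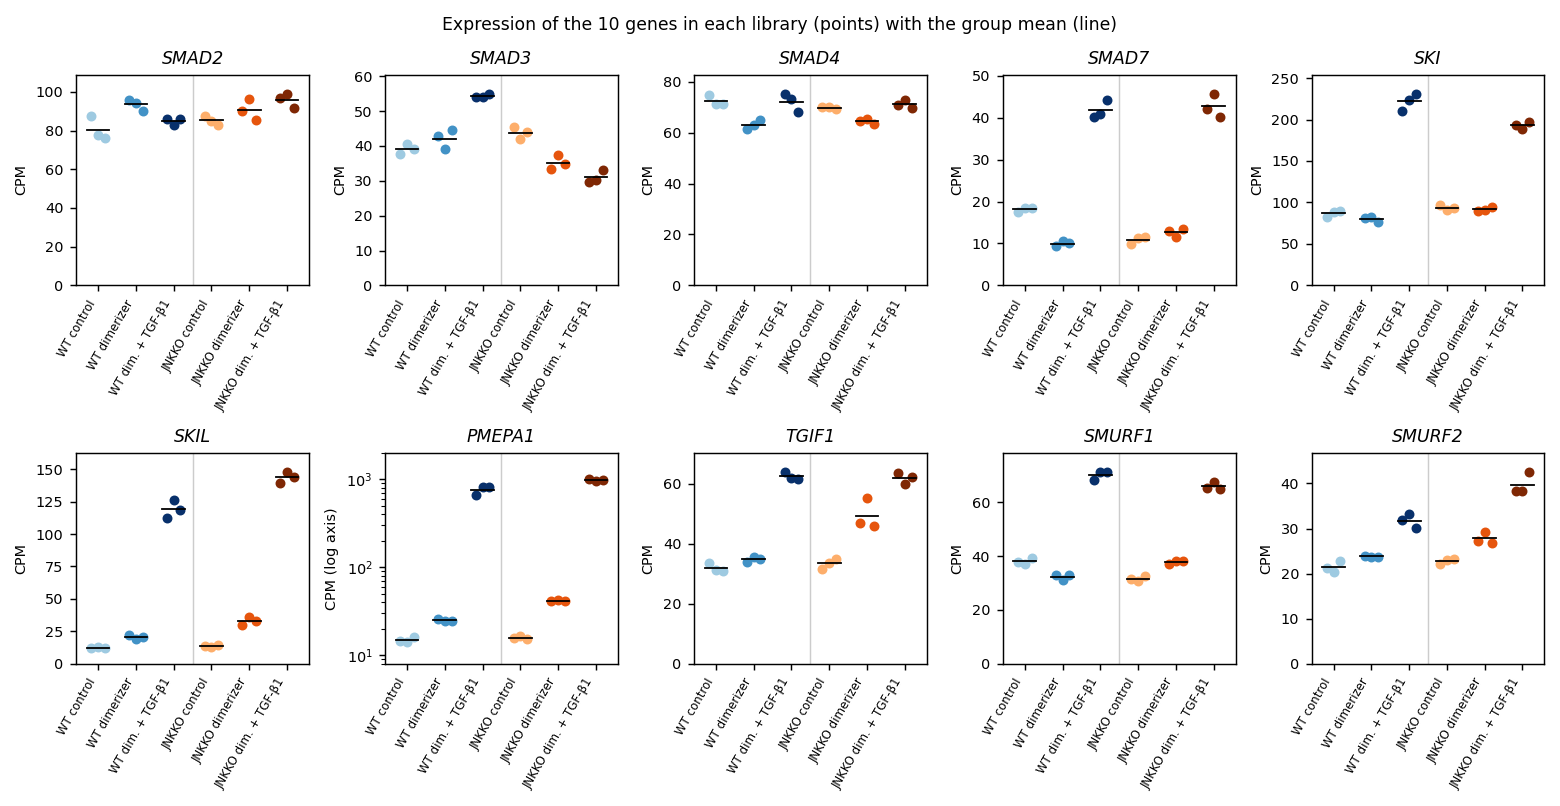
Expression of the 10 genes in CPM (y axis, from 0, with a log axis for PMEPA1) in each of the 18 libraries (points; line, group mean) by group (x axis; dim., dimerizer). PMEPA1, SKIL, SKI, SMAD7, SMURF1 and TGIF1 are highest in the TGF-β1 groups of both genotypes, while SMAD3 with TGF-β1 is highest in WT, at 54.0 to 55.0 CPM, and lowest in JNKKO, at 29.7 to 33.0.

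SMAD3 (chr15:67063763-67195195, plus strand), the receptor-regulated SMAD that binds DNA directly, rose in WT and fell in JNKKO with TGF-β1, and both changes passed in the edgeR fit. SMAD3 gave 37.8, 40.6 and 39.2 CPM in the WT control acini, 42.7, 39.1 and 44.6 in those on dimerizer, and 54.1, 53.97 and 54.99 in those on TGF-β1. For SMAD3, JNKKO acini gave 45.5, 41.9 and 44.1 CPM as controls, 33.5, 37.5 and 34.7 on dimerizer and 29.7, 30.2 and 32.98 on TGF-β1. The WT TGF-β1 libraries lay above all other libraries and the JNKKO TGF-β1 libraries below all others. In WT cells SMAD3 rose with TGF-β1 by 0.37 ± 0.05 and was at 0.10 ± 0.05 with dimerizer (adjusted p = 0.0993, past the threshold at 0.16 without WT dimerizer replicate 2). In JNKKO cells it fell with both steps, by 0.31 ± 0.05 with dimerizer and by 0.19 ± 0.06 with TGF-β1 (edgeR adjusted p = 0.00469). In TPM units the latter fall was -0.08 on the log2(TPM + 1) scale and did not pass (limma, adjusted p = 0.309).

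Between genotypes SMAD3 differed in all 3 treatments. It was higher in JNKKO control, at 0.16 ± 0.05, lower in JNKKO dimerizer, at -0.25 ± 0.05, and lower in JNKKO TGF-β1, at -0.81 ± 0.05, which is 1.76-fold (adjusted p = 3.61e-13). The interaction of genotype with the dimerizer was -0.42 ± 0.08 and that with TGF-β1 -0.56 ± 0.08, both past the threshold. The difference in control was at -0.03 on the log2(TPM + 1) scale and was also lost when JNKKO control replicate 1 (0.13) or WT control replicate 1 (0.14) was left out. SMAD3 shares 182 exon bases with an antisense gene, AC087482.1, that had at most 0.117 CPM.

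SMAD2 (chr18:47808957-47931146, minus strand), the other receptor-regulated SMAD, stayed within a narrow band, from 76.1 to 99.1 CPM over all 18 libraries. SMAD2 gave 87.5, 77.8 and 76.1 CPM in the WT control acini, 95.98, 94.3 and 90.2 in those on dimerizer, and 86.2, 82.8 and 85.9 in those on TGF-β1. For SMAD2, JNKKO acini gave 87.8, 85.2 and 82.98 CPM as controls, 89.99, 96.1 and 85.3 on dimerizer and 96.6, 99.1 and 91.5 on TGF-β1. In WT cells SMAD2 rose by 0.22 ± 0.05 with dimerizer (0.45 on the TPM scale) and fell by 0.14 ± 0.05 with TGF-β1, and WT control replicate 1 lay above the other 2 of its group. The fall did not pass on the TPM scale (-0.05) or without WT dimerizer replicate 1 (-0.12). In JNKKO cells the 2 differences were 0.08 ± 0.05 (95% interval, from the SE, -0.01 to 0.18) and 0.08 ± 0.05 (-0.01 to 0.18), and neither passed, although the latter did so on the TPM scale, at 0.25, and without JNKKO dimerizer replicate 2, at 0.13. With TGF-β1, SMAD2 was higher in JNKKO than in WT by 0.17 ± 0.05 in CPM, and at 0.09 on the TPM scale, which did not pass. In control SMAD2 was at 0.08 ± 0.05 between genotypes, and at 0.15, past the threshold, without WT control replicate 1, and on the TPM scale it passed at 0.21. The interaction with TGF-β1, 0.22 ± 0.07, did not pass without JNKKO dimerizer replicate 3 (0.18). That with dimerizer, -0.13 ± 0.07, passed without WT control replicate 1 (-0.20) or JNKKO dimerizer replicate 2 (-0.18), and on the TPM scale, at -0.41 (limma, adjusted p = 0.00103).

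SMAD4 (chr18:51028394-51085045, plus strand), the partner of both, ranged from 61.5 to 75.3 CPM. SMAD4 gave 74.6, 71.3 and 71.2 CPM in the WT control acini, 61.5, 62.8 and 64.9 in those on dimerizer, and 75.3, 73.3 and 68.04 in those on TGF-β1. For SMAD4, JNKKO acini gave 69.9, 70.1 and 69.3 CPM as controls, 64.5, 65.4 and 63.3 on dimerizer and 70.9, 72.6 and 69.8 on TGF-β1. The dimerizer libraries were lowest in both genotypes. SMAD4 fell with dimerizer by 0.20 ± 0.04 in WT and by 0.12 ± 0.04 in JNKKO, and rose with TGF-β1 by 0.19 ± 0.04 and 0.14 ± 0.04. On the TPM scale the falls were -0.02 and -0.07 and did not pass. The fall in JNKKO also failed to pass without JNKKO control replicate 1 (-0.11), JNKKO control replicate 2 (-0.11), JNKKO dimerizer replicate 1 (-0.12) or JNKKO dimerizer replicate 3 (-0.10). Genotypes did not differ past the threshold in any treatment, with 95% intervals of the log2 difference from -0.13 to 0.03 in control, -0.05 to 0.11 with dimerizer and -0.10 to 0.06 with TGF-β1, but on the TPM scale SMAD4 was lower in JNKKO TGF-β1, at -0.27 (adjusted p = 0.00469, limma). A readthrough gene, AC091551.1, shares 967 exon bases with SMAD4 and had at most 0.537 CPM.

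**Figure D2:**
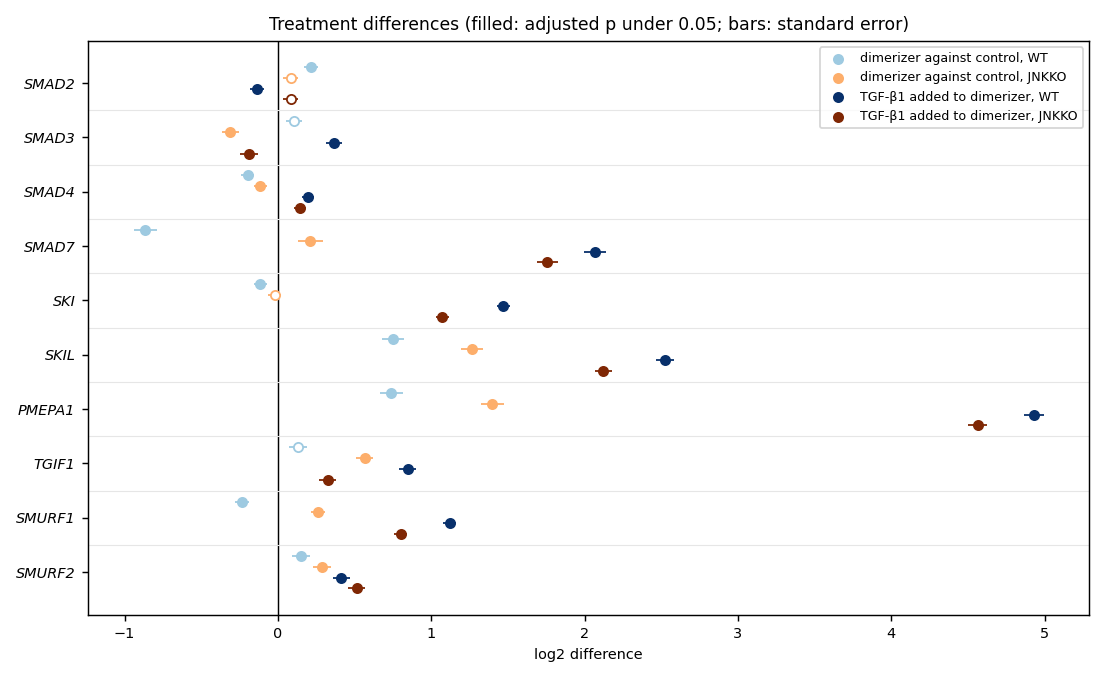
Log2 difference (x axis) of each of the 10 genes (y axis) for dimerizer against control and for TGF-β1 added to dimerizer, in WT and JNKKO (points; bars, SE; filled points passed an adjusted p of 0.05). The 7 restraining genes lie to the right of 0 with TGF-β1 in both genotypes, up to 4.93 for PMEPA1, and the JNKKO point lies left of the WT point for all of them except SMURF2.

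SMAD7 (chr18:48919853-48952052, minus strand), the inhibitory SMAD, was the gene whose response to the dimerizer differed most between genotypes. SMAD7 gave 17.6, 18.4 and 18.5 CPM in the WT control acini, 9.30 to 10.5 in the 3 on dimerizer, and 40.04, 40.9 and 44.2 in those on TGF-β1. For SMAD7, JNKKO acini gave 9.93, 11.2 and 11.6 CPM as controls, 13.1, 11.5 and 13.5 on dimerizer and 42.1, 45.7 and 40.2 on TGF-β1. The JNKKO control libraries were thus all below the WT control libraries, and all JNKKO dimerizer libraries above the WT dimerizer libraries. The TGF-β1 libraries of the 2 genotypes overlapped, and all 6 lay above every other library.

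With dimerizer SMAD7 fell by 0.87 ± 0.08 in WT, 1.82-fold, and rose by 0.21 ± 0.08 in JNKKO, where 1 dimerizer library lay within the range of the controls. That rise was lost with DESeq2, in a fit of the 2 groups alone, on the TPM scale (0.17) and without JNKKO control replicate 1 (0.15), JNKKO dimerizer replicate 1 (0.19) or JNKKO dimerizer replicate 3 (0.16). The interaction was 1.079 ± 0.11 (adjusted p = 5.22e-09). With TGF-β1 SMAD7 rose by 2.07 ± 0.07 in WT, 4.19-fold, and by 1.76 ± 0.07 in JNKKO, 3.38-fold. The difference between those rises was -0.31 ± 0.10 (adjusted p = 0.0164) and did not pass on the TPM scale (-0.18) or without WT dimerizer replicate 1 (-0.27), WT TGF-β1 replicate 3 (-0.25) or JNKKO dimerizer replicate 3 (-0.26). JNKKO against WT was -0.73 ± 0.08 in control, 0.34 ± 0.08 on dimerizer and 0.03 ± 0.06 on TGF-β1, where the 95% interval ran from -0.09 to 0.15.

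SMURF1 (chr7:99027438-99144100, minus strand), a ubiquitin ligase that SMAD7 brings to the receptor, followed a pattern close to that of SMAD7. SMURF1 gave 37.8, 36.96 and 39.5 CPM in the WT control acini, 32.8, 31.1 and 33.1 in those on dimerizer, and 68.3, 71.1 and 71.2 in those on TGF-β1. For SMURF1, JNKKO acini gave 31.6, 30.8 and 32.5 CPM as controls, 37.2, 38.2 and 38.2 on dimerizer and 65.5, 67.5 and 65.02 on TGF-β1. Every JNKKO library lay below every WT library in control and with TGF-β1, and above with dimerizer. SMURF1 fell by 0.24 ± 0.04 with dimerizer in WT and rose by 0.26 ± 0.05 in JNKKO, with an interaction of 0.50 ± 0.06 (adjusted p = 2.6e-07). It rose with TGF-β1 by 1.12 ± 0.04 in WT and by 0.80 ± 0.04 in JNKKO, with an interaction of -0.32 ± 0.06. JNKKO against WT was -0.27 ± 0.05 in control, 0.23 ± 0.04 with dimerizer (0.08 on the TPM scale, where it did not pass) and -0.09 ± 0.04 with TGF-β1 (adjusted p = 0.0671, past the threshold without WT TGF-β1 replicate 1 at -0.11 and on the TPM scale at -0.13). SMURF1 shares 735 exon bases with TRRAP on the other strand, which was at 75.8 to 114.5 CPM and moved by 0.12 in WT and -0.02 in JNKKO with TGF-β1. Whether counting used strand is not given in the sources used here, and reads of such pairs may be shared.

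SMURF2 (chr17:64542295-64662068, minus strand), its paralog, was higher with dimerizer than in control, and higher with TGF-β1 than with dimerizer, in both genotypes. SMURF2 gave 21.2, 20.3 and 22.8 CPM in the WT control acini, 24.004, 23.7 and 23.7 in those on dimerizer, and 31.9, 33.2 and 30.1 in those on TGF-β1. For SMURF2, JNKKO acini gave 22.1, 23.1 and 23.3 CPM as controls, 27.2, 29.3 and 26.8 on dimerizer and 38.4, 38.3 and 42.5 on TGF-β1. Control and dimerizer groups did not overlap in either genotype, nor did dimerizer and TGF-β1 groups. The rises with dimerizer were 0.15 ± 0.06 in WT and 0.29 ± 0.06 in JNKKO, and those with TGF-β1 were 0.41 ± 0.06 and 0.51 ± 0.06. The first of these, in WT, was lost with DESeq2 (0.14), in a fit of the 2 groups alone (0.13) and without WT control replicate 1 (0.15), WT control replicate 2 (0.11) or any 1 of the WT dimerizer replicates 1, 2 and 3 (0.15, 0.16 and 0.16). SMURF2 was the restraining gene with no interaction past the threshold: 0.13 ± 0.08 for the dimerizer (95% interval -0.03 to 0.30) and 0.10 ± 0.08 for TGF-β1 (-0.06 to 0.26). It was higher in JNKKO by 0.22 ± 0.06 with dimerizer, lost on the TPM scale at 0.08, and by 0.32 ± 0.05 with TGF-β1. CEP95 on the other strand shares 167 exon bases with it and was at 21.0 to 29.4 CPM, moving by -0.38 in WT and -0.22 in JNKKO with TGF-β1.

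SKI (chr1:2228695-2310119, plus strand), the corepressor named after a viral oncogene, changed almost only with TGF-β1. SKI gave 82.1, 88.6 and 89.7 CPM in the WT control acini, 81.3, 82.6 and 76.5 in those on dimerizer, and 211, 224 and 231 in those on TGF-β1. For SKI, JNKKO acini gave 96.98, 90.4 and 92.7 CPM as controls, 90.2, 91.3 and 94.3 on dimerizer and 193, 189 and 198 on TGF-β1. The 6 TGF-β1 libraries lay far above the other 12, and those of JNKKO all below those of WT. SKI rose by 1.47 ± 0.04 in WT, 2.77-fold, and by 1.07 ± 0.04 in JNKKO, 2.10-fold, with an interaction of -0.40 ± 0.06 (adjusted p = 5.48e-06). With dimerizer it fell by 0.11 ± 0.04 in WT, a value of 0.00 on the TPM scale that did not pass there, and also not without WT control replicate 2 (-0.10), WT control replicate 3 (-0.09) or WT dimerizer replicate 3 (-0.08). In JNKKO it was at -0.02 ± 0.04 (95% interval -0.11 to 0.06). JNKKO against WT was 0.20 ± 0.04 with dimerizer, at 0.06 and not past the threshold on the TPM scale, and -0.20 ± 0.04 with TGF-β1. In control it was 0.11 ± 0.04 (adjusted p = 0.0442), and DESeq2, another scaling, the TPM scale, the unfiltered fit, the fit of the 2 groups alone and the fits without JNKKO control replicate 1 (0.08), JNKKO control replicate 3 (0.11) or WT control replicate 1 (0.07) did not pass.

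SKIL (chr3:170357678-170396835, plus strand), the relative of SKI whose window is printed above, was the lowest of the 10 genes per length in both controls. It was higher with dimerizer than in control, and higher with TGF-β1 than with dimerizer. SKIL gave 12.3, 12.5 and 12.02 CPM in the WT control acini, 22.4, 19.1 and 20.7 in those on dimerizer, and 112, 126 and 118 in those on TGF-β1. For SKIL, JNKKO acini gave 13.4, 13.03 and 14.8 CPM as controls, 30.2, 35.7 and 32.7 on dimerizer and 139, 148 and 144 on TGF-β1. Every JNKKO library was above every WT library of the same treatment. SKIL rose with dimerizer by 0.75 ± 0.07 in WT and 1.27 ± 0.07 in JNKKO, with an interaction of 0.51 ± 0.10 (adjusted p = 0.000134). Against dimerizer alone, it rose with TGF-β1 by 2.52 ± 0.06 in WT, 5.75-fold, and by 2.12 ± 0.06 in JNKKO, 4.36-fold. That interaction was -0.40 ± 0.08. JNKKO against WT was 0.16 ± 0.08 in control (adjusted p = 0.0954), 0.67 ± 0.06 with dimerizer and 0.27 ± 0.05 with TGF-β1. The last was at 0.07 and did not pass on the log2(TPM + 1) scale.

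TGIF1 (chr18:3411608-3459978, plus strand), the homeodomain corepressor, had overlapping levels between genotypes with TGF-β1 but not with dimerizer. TGIF1 gave 33.5, 31.2 and 30.96 CPM in the WT control acini, 34.1, 35.5 and 35.03 in those on dimerizer, and 63.98, 62.1 and 61.8 in those on TGF-β1. For TGIF1, JNKKO acini gave 31.8, 33.8 and 34.9 CPM as controls, 47.02, 55.3 and 45.96 on dimerizer and 63.8, 60.001 and 62.2 on TGF-β1. All JNKKO dimerizer libraries lay above all WT dimerizer libraries, while the TGF-β1 groups overlapped. The dimerizer step was 0.13 ± 0.06 in WT (adjusted p = 0.0593, past the threshold at 0.17 without WT control replicate 1) and a rise of 0.56 ± 0.06 in JNKKO, with an interaction of 0.44 ± 0.08. On the TPM scale the WT step was 0.32 and passed, and the interaction, at 0.15, did not (limma, adjusted p = 0.277). The rises with TGF-β1 were 0.85 ± 0.05 in WT and 0.32 ± 0.05 in JNKKO, with an interaction of -0.52 ± 0.08 in CPM that was -0.27 and did not pass on the TPM scale. JNKKO against WT with TGF-β1 was -0.02 ± 0.05 (95% interval -0.12 to 0.09).

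PMEPA1 (chr20:57648392-57711536, minus strand), the membrane protein that holds SMADs from the receptor, had the largest response of the 10 genes. PMEPA1 gave 14.6, 14.1 and 16.2 CPM in the WT control acini, 25.6, 24.7 and 24.7 in those on dimerizer, and 667, 807 and 813 in those on TGF-β1. For PMEPA1, JNKKO acini gave 15.5, 16.6 and 15.1 CPM as controls, 41.002, 42.3 and 41.1 on dimerizer and 998, 960.1 and 983 on TGF-β1. WT TGF-β1 replicate 1 was the lowest of the 6 TGF-β1 libraries, and the control groups overlapped while the dimerizer and TGF-β1 groups of the 2 genotypes did not. PMEPA1 rose with dimerizer by 0.74 ± 0.08 in WT and 1.40 ± 0.07 in JNKKO, with an interaction of 0.66 ± 0.11 (adjusted p = 3.44e-05). With TGF-β1 it rose by 4.93 ± 0.07 in WT, 30.5-fold, and by 4.56 ± 0.06 in JNKKO, 23.6-fold. By size of log2 difference it was gene number 112 of 16911 in WT and number 129 in JNKKO. The interaction with TGF-β1 was -0.37 ± 0.09 (adjusted p = 0.00215).

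JNKKO against WT for PMEPA1 was 0.07 ± 0.08 in control, 0.73 ± 0.07 on dimerizer and 0.36 ± 0.05 on TGF-β1. The last value turned to -0.10 on the log2(TPM + 1) scale and did not pass there, since the deposited TPM were 352, 422 and 457 in WT TGF-β1 and 401, 359 and 383 in JNKKO TGF-β1, which overlap. A gene's CPM divided by its TPM, relative to the same ratio for SKI, which has 1 transcript, follows the length that the quantification gave the gene in each library. For PMEPA1, with 5 transcripts, this relative length was 0.521, 0.524 and 0.485 in WT TGF-β1 and 0.668, 0.689 and 0.695 in JNKKO TGF-β1, and the other 12 libraries lay between 0.381 and 0.601. For SKIL it was 1.06, 1.05 and 1.07 in WT TGF-β1 and 1.17, 1.20 and 1.18 in JNKKO TGF-β1. For SMURF2, also with 1 transcript, it was 0.497 or 0.498 in every library. Its part in the difference between the scales was not tested. An antisense gene, NKILA, shares 343 exon bases with PMEPA1, had 0.0353 to 4.51 CPM, and rose with TGF-β1 by 4.001 ± 0.29 in WT and 4.49 ± 0.33 in JNKKO.

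**Figure D3:**
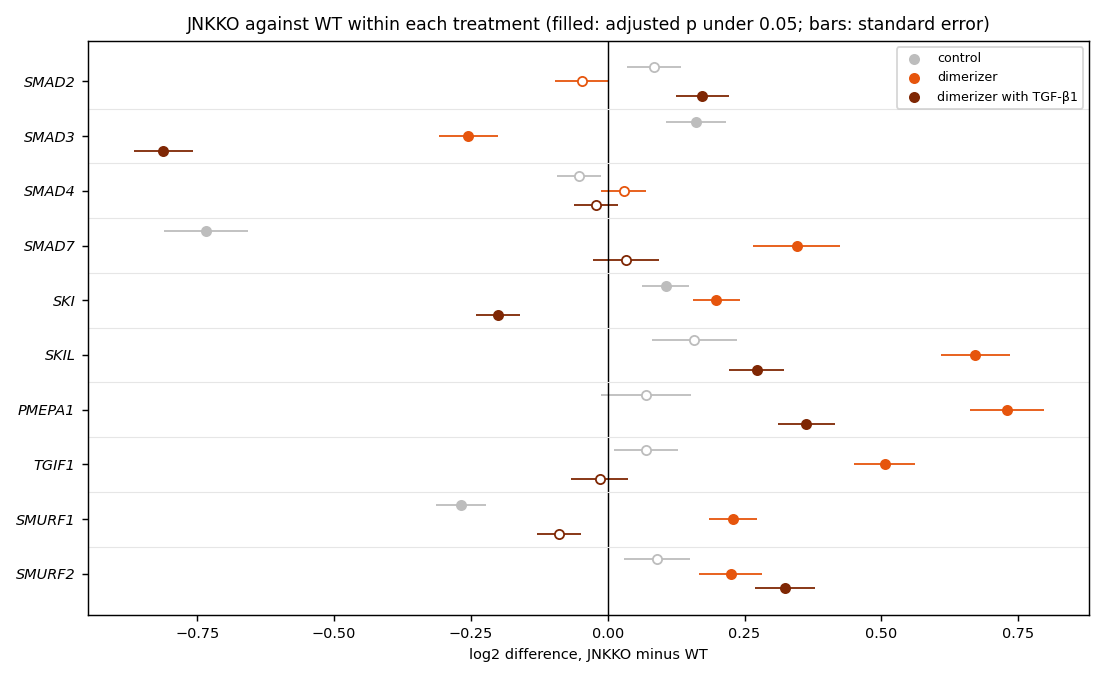
Log2 difference between JNKKO and WT (x axis) of each of the 10 genes (y axis) in control, dimerizer and TGF-β1 groups (points; bars, SE; filled points passed an adjusted p of 0.05). With dimerizer 7 filled points lie to the right, up to 0.73 for PMEPA1, and with TGF-β1 SMAD3 lies farthest from 0, at -0.81.

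Between genotypes, 4 of the 10 genes differed in control, SMAD3 and SKI higher and SMAD7 and SMURF1 lower in JNKKO, with 49.3% of all genes called, 25.8% higher and 23.5% lower, and 6 did not overlap, against 56.4%. That count was 2 without JNKKO control replicate 1, and 4 of 10 is below the share of all genes. On the TPM scale SMAD3 and SKI left these calls and SMAD2 joined them. With dimerizer, 7 were higher in JNKKO, which are all the restraining genes, and SMAD3 was lower, with 40.1% of all genes called, 21.6% higher and 18.5% lower, and 8 did not overlap, against 50.3%. With TGF-β1, SMAD2, SKIL, PMEPA1 and SMURF2 were higher and SMAD3 and SKI lower in JNKKO, with 52.9% of all genes called, 26.5% higher and 26.4% lower, a share close to 6 of 10, and 7 did not overlap, against 59.4%. On the TPM scale SKI, SMURF1 and SMURF2 left the calls with dimerizer, where SMAD2 (-0.20) joined them. There, SKIL, PMEPA1 and SMAD2 left the calls with TGF-β1, where SMAD4 and SMURF1 joined them.

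The dimerizer response differed between genotypes for 6 genes, higher in JNKKO for SMAD7, PMEPA1, SKIL, SMURF1 and TGIF1 and lower for SMAD3, with 42.6% of all genes called in that interaction, 21.4% higher and 21.2% lower. The TGF-β1 response differed for 8, with a smaller rise in JNKKO for TGIF1, SKIL, SKI, PMEPA1, SMURF1 and SMAD7, a rise in WT and a fall in JNKKO for SMAD3, and a fall in WT and no call in JNKKO for SMAD2, with 32.9% of all genes called, 14.1% higher and 18.8% lower. The median of the 10 genes was 0.29 for the first interaction and -0.34 for the second, beside 0.01 and -0.02 over all genes. On the TPM scale TGIF1 left the calls of the first and SMAD2, at -0.41, joined them, with SKIL at 0.30 and SMURF1 at 0.31. TGIF1 and SMAD7 left those of the second, in which PMEPA1 was at -0.61. Both interactions contain the dimerizer libraries with opposite sign, so a gene high in JNKKO dimerizer tends toward a positive value in the first and a negative one in the second. The levels with TGF-β1 themselves, given gene by gene above, do not share them.

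Per length, TGIF1 had the highest TPM of the 10 genes in both controls and both dimerizer groups, and PMEPA1 in both TGF-β1 groups. In WT control the order was TGIF1 (mean 29.8 TPM), SMAD2 (20.9), SKI (19.7), SMAD4 (17.1), SMAD3 (10.6), SMURF2 (9.79), SMURF1 (8.67), SMAD7 (8.32), PMEPA1 (7.93) and SKIL (2.94). In that order SMAD2, SKI and SMAD4 overlapped as neighbours, as did SMAD3 with SMURF2, and SMURF1, SMAD7 and PMEPA1. In WT TGF-β1 the order was PMEPA1 (410 TPM), TGIF1 (67.2), SKI (60.8), SKIL (30.7), SMAD2 (28.0), SMAD7 (22.99), SMAD4 (21.6), SMURF1 (19.3), SMURF2 (17.5) and SMAD3 (16.9), and there SMAD7 overlapped SMAD4, SMAD4 overlapped SMURF1, and SMURF2 overlapped SMAD3. SMAD3 was the lowest with TGF-β1 in JNKKO too, at 7.84 TPM, against 381 for PMEPA1. The summed TPM of SMAD2, SMAD3 and SMAD4 was 48.6 ± 2.65 for the WT controls, 57.6 ± 0.905 on dimerizer and 66.4 ± 2.68 on TGF-β1 (SD, n = 3). The JNKKO sums were 50.6 ± 1.18, 48.6 ± 3.87 and 55.4 ± 2.06. On the log2(TPM + 0.1) scale the median of all genes moved by 0.13 with dimerizer and 0.15 with TGF-β1 in WT. In JNKKO it moved by -0.03 and 0.22. These sums therefore do not measure a change between groups. On counts, in WT, SMAD4 fell with dimerizer by 0.20 and SMAD2 fell with TGF-β1 by 0.14, while the 2 rose in the other step. The 7 restraining genes summed to 87.2 ± 1.95, 98.2 ± 2.78 and 629 ± 59.2 TPM in WT. In JNKKO they summed to 88.0 ± 1.82, 117 ± 6.99 and 596 ± 31.1. PMEPA1 made up 65.1% and 64.0% of those sums with TGF-β1. Its difference between JNKKO and WT with TGF-β1 was 0.36 ± 0.05 in CPM but -0.10 on the log2(TPM + 1) scale. The TGF-β1 sums of the genotypes also overlapped between libraries. They therefore do not order the genotypes.

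In TPM, the balance of SMAD2 to SMAD3 parted between the genotypes with dimerizer and with TGF-β1, while the controls overlapped. The ratio of their TPM was 2.26, 1.80 and 1.89 for the WT controls, 2.55, 2.56 and 2.23 on dimerizer, and 1.67, 1.71 and 1.61 on TGF-β1. It was 2.18, 2.42 and 2.43 in JNKKO control, 2.95, 3.16 and 2.89 in JNKKO dimerizer, and 4.14, 3.90 and 3.44 in JNKKO TGF-β1. The WT ratio was thus lowest, and the JNKKO ratio highest, with TGF-β1. SMAD7 per SMAD3 went from 0.408 ± 0.032 in WT dimerizer to 1.36 ± 0.092 in WT TGF-β1, and from 0.696 ± 0.10 to 3.01 ± 0.23 in JNKKO (SD, n = 3). SKI exceeded SKIL 6.77-fold in WT control and 6.72-fold in JNKKO control, but 1.98-fold and 1.59-fold with TGF-β1. SMURF2 exceeded SMURF1 except in WT TGF-β1, where the ratio was 0.907. TPM ratios depend on the length given to each gene. The relative length of SMAD3 was 0.872 to 0.894 in WT TGF-β1 and 1.04 to 1.07 in JNKKO TGF-β1. The part of that length difference was not tested, and no test was made of these ratios.

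**Figure D4:**
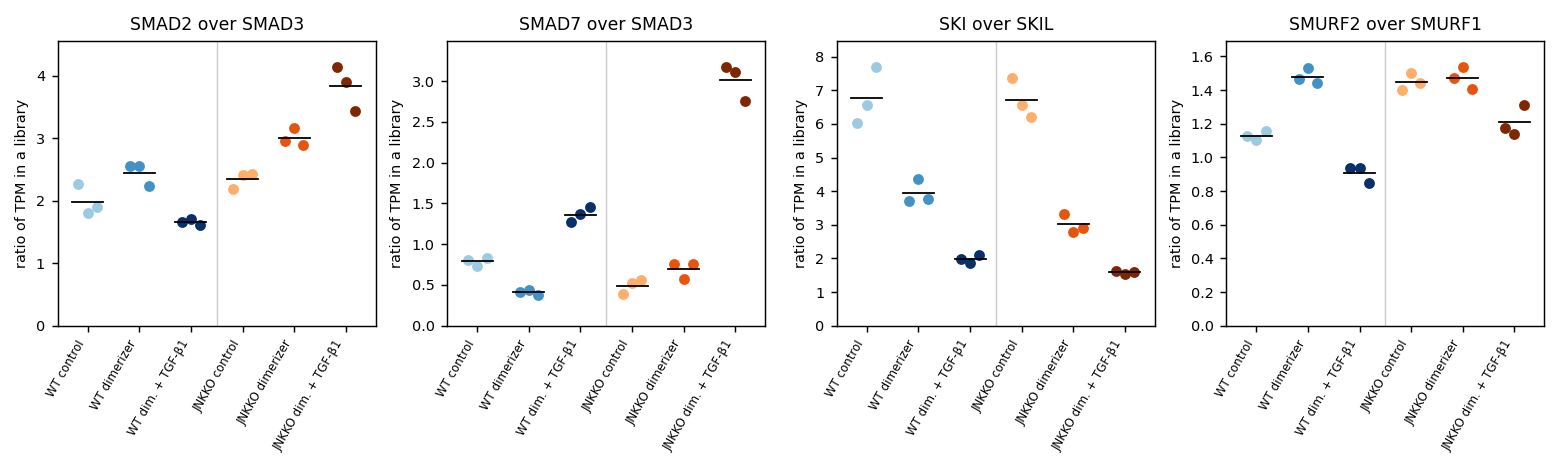
Ratio of the TPM of 2 genes in each library (y axis, from 0; points; line, group mean) by group (x axis; dim., dimerizer). SMAD2 over SMAD3 is 1.61 to 1.71 in WT TGF-β1 and 3.44 to 4.14 in JNKKO TGF-β1, and SKI over SKIL falls from control to TGF-β1 in both genotypes.

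Over the 18 libraries, log2 CPM of SKIL and PMEPA1 had a Pearson r of 0.989, SMAD7 and SMURF1 0.975, and SKI and SMURF1 0.969, while SMAD2 and SMAD3 had -0.454 and SMAD3 lay between -0.29 and 0.15 with the other 8. The points share 6 groups, and the 6 TGF-β1 libraries carry most of the spread, so these are descriptions with n = 18 libraries that are not independent of the treatments. Among 10600 other genes with a mean of at least 5 CPM, the genes most like them in pattern were TGFBI for SMAD7 (0.994), NMNAT2 for PMEPA1 (0.997), KIAA1644 for SKIL (0.996), USP22 for SKI (0.996), ST3GAL1 for SMURF1 (0.995) and SRPX for SMURF2 (0.981). The nearest genes were DAG1 for SMAD3 (0.938), UNK for SMAD4 (0.885) and RANBP17 for SMAD2 (0.879).

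Other members of the pathway were counted from lists of ligands and receptors, of further SMADs and regulators, and of genes known to be induced by TGF-β. Of the ligands, receptors and latent binding proteins, 17 of 19 were tested. With TGF-β1, 9 rose and 3 fell in WT, against 65.2% of all genes called, and 9 rose and 4 fell in JNKKO, against 60.7%. TGFBR1, the type I receptor to which SMAD7 binds, rose by 1.65 ± 0.05 in WT and 1.43 ± 0.05 in JNKKO. LTBP2, named as a member of the latent TGF-β binding protein family, rose by 2.90 ± 0.06 and 2.42 ± 0.06. TGFBR3, the betaglycan coreceptor, was at 50.5, 38.1 and 35.3 CPM in WT TGF-β1 and at 6.83, 7.45 and 5.79 in JNKKO TGF-β1, a difference of -2.62 ± 0.13. INHBA, which encodes the activin A subunit that also signals through SMAD2 and SMAD3, was at 102.7, 111 and 111 CPM in JNKKO dimerizer against 11.5, 8.52 and 10.1 in WT dimerizer, a difference of 3.44 ± 0.17. TGFB1 itself was higher in JNKKO control by 0.92 ± 0.09, with 49.5, 51.0 and 53.0 CPM against 24.1, 26.8 and 30.4. With dimerizer alone, 10 of the 17 rose and 5 fell in WT, against 55.9% of all genes called, and 8 rose and 2 fell in JNKKO, against 40.4%.

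All 28 further SMADs and SMAD regulators were tested, and with TGF-β1 13 rose and 12 fell in WT, against 65.2% of all genes called, and 8 rose and 10 fell in JNKKO, a share close to the 60.7% of all genes. The median log2 difference between JNKKO and WT over the list was -0.05 for control, -0.02 for dimerizer and 0.01 for TGF-β1, near the 0.01, 0.00 and -0.00 over all genes. SMAD6, the inhibitory SMAD of the BMP branch, was at 14.3, 15.3 and 18.8 CPM in the WT controls, 0.764, 0.759 and 0.562 after WT acini received dimerizer, and 9.01, 7.62 and 7.50 after TGF-β1. Against control the dimerizer group was lower by 4.54 ± 0.20, and against dimerizer the TGF-β1 group was higher by 3.54 ± 0.21. SMAD6 was lower in JNKKO control, at -2.79 ± 0.17, as were SMAD7, at -0.73 ± 0.08, and SMAD9, a BMP-branch SMAD, at -1.46 ± 0.06. NEDD4L, a ubiquitin ligase that acts on activated SMADs, was lower in JNKKO in all 3 treatments, at -0.41 ± 0.05, -0.65 ± 0.05 and -1.05 ± 0.05. The coactivators CREBBP and EP300 were lower in JNKKO TGF-β1, at -0.67 ± 0.04 and -0.59 ± 0.05. LDLRAD4, a relative of PMEPA1, was at 0.0427, 0.0319 and 0.0322 CPM in JNKKO dimerizer, about 1 count each, and at 2.73, 2.42 and 3.35 in JNKKO TGF-β1.

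Of 24 genes known to be induced through TGF-β and SMADs, 23 were tested, and all 23 rose with TGF-β1 in WT, against 33.4% of all genes called higher, and 21 rose and 0 fell in JNKKO, against 30.5% higher. The medians were 3.23 and 2.60, beside 0.00 and -0.01 over all genes. This list was written with earlier results of these data known, so its counts are descriptions and not an independent check. COL1A1 rose by 3.01 ± 0.05 and 2.35 ± 0.05, NEDD9 by 5.07 ± 0.10 and 4.28 ± 0.10, and MMP2 by 5.86 ± 0.13 and 6.11 ± 0.13. With dimerizer alone 8 rose and 11 fell in WT, with a median of -0.40 beside 0.03 over all genes and with 55.9% of all genes called. In JNKKO 16 rose and 3 fell, with a median of 0.53 beside 0.01 and with 40.4% called. The dimerizer interaction was higher in JNKKO for 17 and lower for 3 (median 0.89 beside 0.01, 42.6% called). Over the same list the TGF-β1 interaction was lower in JNKKO for 13 and higher for 1 (median -0.39 beside -0.02, 32.9% called).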

How the data were processed

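RNA-seq libraries were made from acini of WT and JNKKO MCF-10A.B2 cells, 18 in 6 groups of 3 by title. Per the labels' protocols, libraries were poly(A)-selected and read from both ends. Per the submitters' processing notes, cutadapt and RSEM were used with the build hg38. Tool versions, annotation and strand setting: not given in the sources used here. The authors deposited expected counts per gene and TPM, per the file headers, and a median of 9.35% of the count values per library were not whole. RSEM divides reads between transcripts by a model, so TPM follow the transcript mix of a gene.

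Expected counts were rounded and tested in edgeR 4.0.16 (R 4.3.3; quasi-likelihood F test, robust, TMM factors of 0.962 to 1.04, default filter with a minimum count of 10, 1 mean per group, all 18 libraries), with Benjamini-Hochberg adjustment over 16911 genes and a threshold of 0.05. There were 9 comparisons. Positions came from GENCODE 29, matched by transcript identifiers, and start-site windows from RefSeq. Alternatives were RLE scaling, no filter, a replicate block, only the groups compared, limma 3.58.1 on log2(TPM + 1) and log2(TPM + 0.1), DESeq2 1.42.0 and leaving out each library. The 10 genes and the lists of other genes were chosen with earlier results of these data known. All 10 genes were named, with up to 3 called genes of the smallest adjusted p per list and comparison, and the 3 genes closest in pattern, of which the first is given, except for TGIF1, where it is not reported here.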

Additional observations from a re-analysis of the deposited data

Results flagged for a closer look

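For 6 of the 10 genes the difference between dimerizer and control differed between genotypes by the test of the interaction (JNKKO minus WT, log2), against 42.6% of all genes called. It was 1.079 for SMAD7, 0.66 for PMEPA1, 0.51 for SKIL, 0.50 for SMURF1, 0.44 for TGIF1 and -0.42 for SMAD3 (edgeR quasi-likelihood, Benjamini-Hochberg adjusted p of at most 0.000134). For SMAD7 and SMURF1 the change passed in opposite directions in WT and JNKKO, but the rise of SMAD7 in JNKKO was lost with DESeq2, on the TPM scale, in a fit of the 2 groups alone and in 3 of the fits without 1 library. For TGIF1 the interaction did not pass on the TPM scale.

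For 8 genes the difference between TGF-β1 with dimerizer and dimerizer alone differed between genotypes, against 32.9% of all genes called. It was -0.56 for SMAD3, -0.52 for TGIF1, -0.40 for SKIL, -0.40 for SKI, -0.37 for PMEPA1, -0.32 for SMURF1, -0.31 for SMAD7 and 0.22 for SMAD2 (edgeR quasi-likelihood, Benjamini-Hochberg adjusted p of at most 0.0164). The changes of SMAD3 passed in opposite directions, though its fall in JNKKO did not pass on the TPM scale, and the interactions of SMAD7 and TGIF1 did not pass there. Both sets of interactions use the dimerizer libraries. The mitochondrial share was lowest in JNKKO TGF-β1 and highest in WT control, and its part was not tested.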

How the results depend on the processing

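Of 1290 alternative values of the 10 genes, 1179 kept their direction and side of the threshold, 64 lost a call, 22 gained one and 25 changed sign, and 55 of 90 results were the same throughout. The count of the 10 genes called in JNKKO control against WT control, 4, ranged from 2 to 4 over left-out libraries. The other 8 counts stayed within 1.5 times the reported one. Signs turned for values near 0 and, on the TPM scale, for 2 called differences between JNKKO and WT: PMEPA1 with TGF-β1, at -0.10 with either pseudocount, against 0.36, and SMAD3 in control, at -0.0275 on log2(TPM + 1) and -0.0299 on log2(TPM + 0.1), against 0.16. The other turns on these 2 scales, in that order, were: in control, PMEPA1 at -0.0414 and -0.0441; with dimerizer, SMAD4 at -0.14 and -0.15; with TGF-β1, TGIF1 at 0.0301 and 0.0304; in the dimerizer interaction, SMAD4 at -0.0545 and -0.058, SKI at -0.0497 and -0.0518, and SMURF2 at -0.0136 and -0.0161. TGIF1 with TGF-β1 was also at 0.0008 with RLE scaling and 0.0011 with DESeq2. Left-out libraries gave ranges, for JNKKO against WT with TGF-β1, of -0.0359 to 0.0094 for TGIF1, -0.0424 to 0.0105 for SMAD4 and -0.0186 to 0.0971 for SMAD7, and of -0.0441 to 0.0065 for SKI with dimerizer in JNKKO. The cause was not tested. On the log2(TPM + 1) scale the median of all genes lay at 0.11 in WT and 0.16 in JNKKO with TGF-β1, at -0.09 in JNKKO against WT with dimerizer and at -0.09 in the dimerizer interaction, and on log2(TPM + 0.1) these were 0.15, 0.22, -0.13 and -0.13, with 0.13 in WT with dimerizer.

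Replicate numbers did not pair the libraries, with correlations of same-numbered deviations from -0.059 to 0.053. With the replicate block, all 90 values of the 10 genes kept their direction and side of the threshold, and the numbers called in the 9 comparisons were the reported ones, such as 10 with TGF-β1 in WT and 9 in JNKKO. Counting error is relatively largest for SMAD7, with 280 counts in its lowest library, SKIL, with 358, and PMEPA1, with 394. The part of depth in the precision of these genes was not tested. For JNKKO against WT in control their SE were 0.076, 0.078 and 0.082.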
